A study of Mus musculus with 2 samples.

Results

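The genes described here are 10 that textbooks use to tell arteries from veins, matched by symbol to 10 of the 31053 genes in the count tables. The arterial members were Gja4, Gja5, Efnb2, Unc5b, Sema3g and Nrp1, and the venous members were Ephb4, Nr2f2, Aplnr and Nrp2. The study sequenced single cells of C57BL/6 mouse embryos, with 1 library per stage, E10.5 and E11.5 (days of embryonic development). Both libraries mixed fetal liver with the dorsal aorta and the tissue around it. No treatment, altered allele or transgene is named for either stage, and the number of embryos behind a library is not given in the sources used here. Endothelial cells were taken as cells with at least 2 UMIs (unique molecular identifiers, each marking 1 captured RNA molecule) of Cdh5, the VE-cadherin of endothelial junctions. They numbered 367 of 8705 cells at E10.5 (4.22%) and 253 of 9756 at E11.5 (2.59%). All 10 members were detected in these cells in both libraries.

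Arteries and veins form from endothelium that takes on separate identities early in the embryo. In arteries, VEGF and Notch signalling act with SoxF factors to switch on ephrin-B2 (Efnb2) and the connexins that join arterial cells, connexin 37 (Gja4) and connexin 40 (Gja5). In veins, the nuclear receptor COUP-TFII (Nr2f2) holds Notch signalling down, and the receptor EphB4 (Ephb4) binds ephrin-B2 at the border between the vessel types. Neuropilin-1 (Nrp1) and neuropilin-2 (Nrp2) are co-receptors for semaphorins and VEGFs, Unc5b is a netrin-family receptor of arterial and tip cells, Sema3g is a semaphorin secreted by arterial endothelium, and Aplnr is the apelin receptor of sprouting and venous endothelium. The dorsal aorta is the site where blood stem cell precursors emerge from arterial-type endothelium.

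The 10 genes lie on 9 chromosomes of GRCm38. Gja4 (ENSMUSG00000050234) lies at chr4:127311421-127314039 on the minus strand and Gja5 (ENSMUSG00000057123) at chr3:96904693-97077416 on the plus strand. Efnb2 (ENSMUSG00000001300) lies at chr8:8617434-8661242 (minus), and Unc5b (ENSMUSG00000020099) at chr10:60762593-60831581 (minus). Sema3g (ENSMUSG00000021904) lies at chr14:31217860-31230352 (plus), and Nrp1 (ENSMUSG00000025810) at chr8:128358604-128503363 (plus). Of the venous members, Ephb4 (ENSMUSG00000029710) lies at chr5:137350109-137378669 (plus), and Nr2f2 (ENSMUSG00000030551) at chr7:70351944-70366735 (minus). Aplnr (ENSMUSG00000044338) lies at chr2:85136225-85139923 (plus), and Nrp2 (ENSMUSG00000025969) at chr1:62703285-62818695 (plus). None overlaps another gene on its own strand, while Gja5, Ephb4 and Nrp2 overlap genes on the opposite strand.

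The 250 bases before the start site of 9 members matched the RefSeq promoter table (GRCm38.p6). Those of Gja4 (chr4:127314040-127314289, minus strand), Gja5 (chr3:97032152-97032401, plus strand) and Nr2f2 (chr7:70366747-70366996, minus strand) are printed, because the connexins and Nr2f2 were high in different endothelial clusters. Capitals mark AGGAAG, a core that ETS factors bind, on either strand.
Gja4: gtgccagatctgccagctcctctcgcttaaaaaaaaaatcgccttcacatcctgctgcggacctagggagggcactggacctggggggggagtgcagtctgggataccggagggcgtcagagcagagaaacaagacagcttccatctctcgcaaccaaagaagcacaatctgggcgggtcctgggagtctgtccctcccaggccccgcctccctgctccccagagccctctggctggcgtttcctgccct
Gja5: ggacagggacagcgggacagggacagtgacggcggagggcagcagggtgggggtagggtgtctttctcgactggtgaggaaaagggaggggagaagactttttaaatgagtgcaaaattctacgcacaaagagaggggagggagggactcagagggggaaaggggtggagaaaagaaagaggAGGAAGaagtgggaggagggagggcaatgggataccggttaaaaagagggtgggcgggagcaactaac
Nr2f2: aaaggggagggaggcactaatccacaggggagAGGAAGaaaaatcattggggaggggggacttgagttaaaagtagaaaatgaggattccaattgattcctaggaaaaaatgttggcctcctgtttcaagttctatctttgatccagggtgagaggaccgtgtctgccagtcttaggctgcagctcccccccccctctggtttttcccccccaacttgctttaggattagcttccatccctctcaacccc
AGGAAG was found in the windows of Gja5, Sema3g, Nrp1 and Nr2f2, 4 of 9, beside 29.5% of all 32851 promoters in the table. The match began 68 bases before the start site in Gja5 and 218 bases before it in Nr2f2. AGGTCA, the core of nuclear receptor sites such as Nr2f2, was found in the Nrp1 window alone, beside 14.0% of all promoters. None of the 9 windows held AACAAT, a core for SOX factors that 9.42% of all promoters held, or GTGGGAA, a core for the Notch effector RBPJ that 5.42% held. Nor did any hold the GATA factor core AGATAA, found in 9.99% of promoters, or the E-box CACGTG, found in 6.02%. Both strands were searched, and no match overlapped another. The letters are a description and were not tied to binding in these cells.

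Levels are given as CPM, the UMIs of a gene per 1000000 UMIs. Sums run over all cells of a group, and the total leaves out haemoglobin and mitochondrial genes. With 1 library per stage no difference has a replicate check, so no test across samples was possible. Brackets give 95% intervals that cover counting error only, and a difference is called at 2-fold or more. Levels of different genes are not compared, because capture at the 3′ end differs between genes.

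The Cdh5-positive cells were grouped into 10 clusters, E0 to E9, with the members and the 33 partner genes left out of the clustering. All 12 genes of the endothelial marker list reached 20 CPM in these cells at both stages, with summed levels of 5756 and 6361 CPM. Clusters E0, E5 and E6 carried 9 or 10 of 11 arterial markers that are not members, such as Sox17, Dll4 and Hey1, and are called arterial-like. The 11 markers summed to 1913 CPM at E10.5 and 3349 at E11.5 in these clusters, against 317.0 and 291.7 CPM in the other Cdh5-positive cells. Among the 10 leading genes of E0 were Tmem100 and Npr3, which are also endocardial markers, so the stages are compared by cluster number. E0 held most of these cells at E10.5 (121 of 142) and E5 most at E11.5 (38 of 57). Cluster E4 was sinusoidal-like, with Lyve1, Stab2 and Oit3, and E7 was like haemogenic endothelium or its clusters, with Runx1, Gfi1 and Spi1. Cluster E8 was macrophage-like and came from E11.5 alone, with a macrophage list of 775 CPM over all Cdh5-positive cells there beside 8.70 CPM at E10.5. E2, E3, E9 and E1 are given by number. E3 was mostly of the E10.5 library (86 of 97 cells) and E2 mostly of the E11.5 library (101 of 105), so for these clusters stage and cluster cannot be told apart.

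Cluster E1 stands apart. Of its 114 cells, 96 (84.2%) had a high doublet score, a sign of droplets with more than 1 cell, against 7 of 129 (5.43%) in E0. Its leading genes were embryonic globins with Dlk1, Gpc3 and Acta2, genes of erythroid, liver and mesenchymal cells. Its cells are 84 of 367 at E10.5 and 30 of 253 at E11.5, and results that change without it are given both ways. The libraries shared 37 barcodes, of which 24 passed the filters in both.

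To see how far each gene marks endothelium, Cdh5-positive cells were compared with cells without a UMI of Cdh5. Gja4, Gja5, Sema3g and Aplnr differed most between these cells, by 36.1-fold or more at both stages, whereas Efnb2, Unc5b, Nrp1, Ephb4, Nrp2 and above all Nr2f2 were carried by other cells too. At E10.5, 8 of 10 members were at least 2-fold higher in Cdh5-positive cells, beside 9.42% of 16262 genes tested, and at E11.5, 9 of 10 were, beside 11.9% of 17038 genes.

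Gja4 stood at 614.8 CPM in Cdh5-positive and 2.58 CPM in Cdh5-negative cells at E10.5, and at 379.2 and 1.30 CPM at E11.5. Those are 238-fold and 292-fold differences. Gja5 stood at 222.6 and 0.972 CPM at E10.5 and at 102.5 and 0.474 CPM at E11.5. Both connexins were thus endothelial at both stages, with 94.9% and 93.3% of all Gja4 UMIs in Cdh5-positive cells. Sema3g was 83.4-fold higher at E10.5 (31.9 against 0.382 CPM) and 36.1-fold higher at E11.5 (25.8 against 0.714 CPM). Aplnr was 160.7-fold higher at E10.5 (99.9 against 0.621 CPM) and 530.7-fold higher at E11.5 (181.9 against 0.343 CPM). Cdh5-positive cells held 87.6% of all Sema3g UMIs at E10.5 but 65.3% at E11.5, while for Aplnr they held 93.1% and 95.5%. Aplnr, the receptor of apelin and apela, was the venous member among these 4.

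The remaining members were shared with other cells. The log2 difference between Cdh5-positive and Cdh5-negative cells was 1.61 at E10.5 and 1.82 at E11.5 for Efnb2, 2.30 and 2.09 for Unc5b, and 1.89 and 1.68 for Nrp1. Ephb4 differed by 1.19 and 1.45. Nrp2 differed by 0.98 at E10.5, just under the threshold, and by 2.24 at E11.5. Nr2f2, the venous regulator, went the other way: it stood at 141.0 CPM in Cdh5-positive and 234.5 CPM in Cdh5-negative cells at E10.5, and at 207.5 and 341.2 CPM at E11.5. Its differences of -0.73 and -0.72 stayed under 2-fold. Only 4.94% and 3.09% of Nr2f2 UMIs lay in Cdh5-positive cells.

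**Figure D1:**
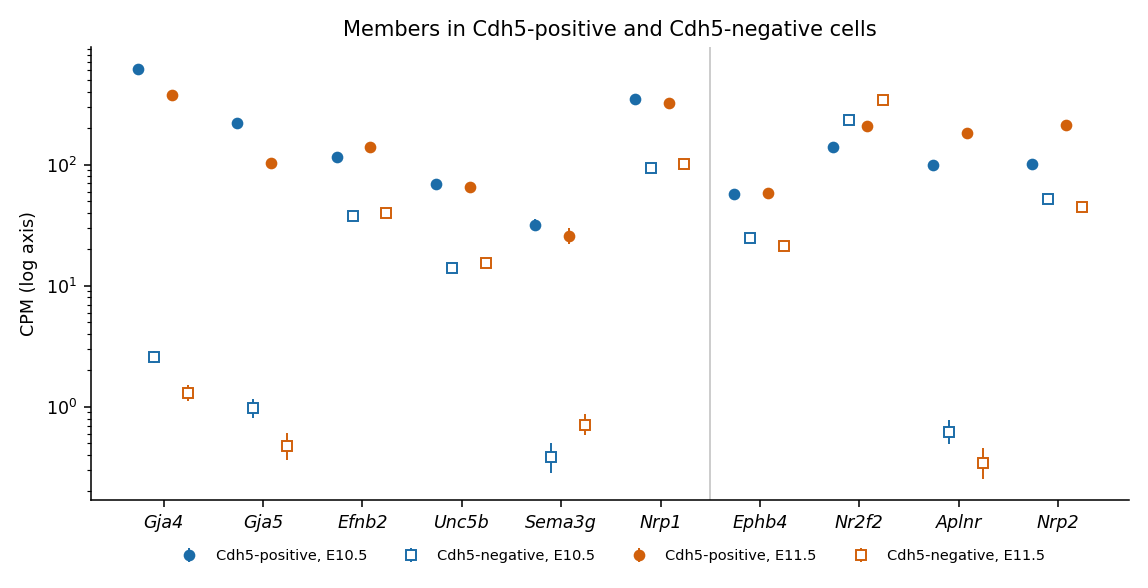
CPM of each member (log axis) in Cdh5-positive cells (filled circles) and Cdh5-negative cells (open squares) at E10.5 (blue) and E11.5 (orange), with 95% counting intervals; the grey line parts arterial from venous members. The gap spans 83.4-fold or more at E10.5 for Gja4, Gja5, Sema3g and Aplnr, and the open squares of Nr2f2 lie above its filled circles.

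Within endothelium, the arterial-like clusters were compared with all other Cdh5-positive cells of the same stage. All 6 arterial members were higher in the arterial-like cells at both stages, and Nr2f2, Aplnr and Nrp2 were lower at both. Ephb4 was the exception among the venous members and stood at like levels on both sides. Genes at least 2-fold higher made up 12.8% of 11613 tested at E10.5 and 11.1% of 11135 at E11.5, and genes at least 2-fold lower 10.6% and 11.4%. The median log2 difference of the arterial members was 3.16 at E10.5 and 3.12 at E11.5, that of the venous members -4.81 and -5.31, and that of all genes 0.08 and 0.07. Markers of erythroid cells also differed, at 559.8 CPM summed in arterial-like and 7896 CPM in other Cdh5-positive cells at E10.5. The summed level of the venous or lymphatic marker list, which holds no member, went the other way from Nr2f2, Aplnr and Nrp2. Its 9 genes summed to 961.4 CPM in arterial-like and 241.1 CPM in other cells at E10.5. The sums at E11.5 were 967.6 and 397.3 CPM. Its single genes were mixed. In arterial-like cells 3 reached 20 CPM at each stage, against 4 and 5 in the other cells. Vwf, on this list, was a leading gene of E0 and E5, while Flrt2, also on it, was lower in arterial-like cells. E1 held 19152.8 CPM of the erythroid markers over both stages, so the arterial-like cells were also compared with clusters E2, E3 and E4 alone.

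Gja4 (connexin 37) stood at 2456 CPM in arterial-like cells and 195.6 CPM in the other cells at E10.5, a log2 difference of 3.65 [3.57 to 3.73]. At E11.5 it stood at 1956 and 60.9 CPM, a difference of 5.004 [4.85 to 5.17]. Every arterial-like cell held Gja4, with 1, 26 and 248 UMIs as the lowest, median and highest count at E10.5 and 6, 31 and 134 at E11.5. Gja5 (connexin 40), which forms channels with connexin 37 in arterial endothelium, stood at 976.0 and 51.1 CPM at E10.5 and at 563.7 and 9.39 CPM at E11.5. Its log2 differences were 4.26 and 5.91. Sema3g stood at 127.0 and 10.2 CPM at E10.5 (3.63) and at 114.2 and 7.91 CPM at E11.5 (3.85). These 3 genes had the widest gaps among the arterial members.

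Efnb2, Unc5b and Nrp1 were higher in arterial-like cells by smaller steps and were also present in the other endothelium. Efnb2, the ephrin of arterial cells, stood at 371.7 against 57.9 CPM at E10.5 (2.68) and at 428.3 against 82.2 CPM at E11.5 (2.38). Unc5b stood at 221.8 against 34.9 CPM (2.67) and at 196.6 against 38.9 CPM (2.34). Its counts were uneven, since 3 cells held 34.4% of its UMIs in arterial-like cells at E11.5. Nrp1 stood at 1095 against 175.2 CPM (2.64) and at 905.6 against 208.7 CPM (2.12).

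Nr2f2, which restrains the arterial programme in veins, was low in the arterial-like cells. It stood at 9.28 against 171.0 CPM at E10.5, a log2 difference of -4.20 [-4.94 to -3.56], and at 12.2 against 246.9 CPM at E11.5, a difference of -4.33 [-5.18 to -3.61]. Aplnr gave 5 UMIs in arterial-like cells at E10.5 (2.44 against 122.0 CPM) and none at E11.5, where it was at least 89.3-fold lower against a floor of 3 counts. Nrp2 stood at 2.93 against 124.5 CPM at E10.5 and at 3.26 against 254.5 CPM at E11.5. Ephb4, the receptor of ephrin-B2, stood at 74.7 against 52.8 CPM at E10.5 (0.50 [0.23 to 0.77]) and at 61.2 against 57.8 CPM at E11.5 (0.08 [-0.30 to 0.44]). Its levels thus did not part arterial-like from other endothelial cells by 2-fold at either stage.

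The same 6 arterial members were higher, and the same 3 venous members lower, when the arterial-like cells were set against clusters E2, E3 and E4 alone. In that comparison 18.9% of genes were higher and 7.1% lower at E10.5, and 12.5% and 9% at E11.5. Gja4 differed by 6.68 and 5.49, while Gja5 differed by 10.16 and 8.23, the first of these resting on 4 UMIs in the compared cells. Ephb4 differed by 0.17 and -0.13.

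Shares of cells were read after each cell was thinned to 5000 UMIs, because arterial-like cells were shallower (medians of 12122.5 and 15952 UMIs) than E2 and E3 cells (35185 and 31344.5 UMIs). Erythroid-like cells, which should lack these genes, were read as a guide to the background of free RNA. After thinning, Gja5 was found in 96.2% of arterial-like cells at E10.5 [91.2 to 98.8] and 87.3% at E11.5 [75.8 to 94.6], against 97.9% and 94.7% before thinning. In E2 and E3 together it was found in 0.097% and 0.685%, and in erythroid-like cells in 0.264% and 0.0493%, with median depths of 32492 and 25101 UMIs before thinning. In E2 and E3 it was thus no higher than in erythroid-like cells at E10.5, and the E11.5 share is under 1 expected cell of 108. Nr2f2 was found after thinning in 3.003% of arterial-like cells at both stages, below its share in erythroid-like cells of 9.57% and 8.53%. The erythroid-like share is thus no floor for Nr2f2, and whether its few UMIs in arterial-like cells are free RNA was not tested. In E2 and E3 Nr2f2 was found in 54.2% and 61.4%. Thinning left out 16 arterial-like cells at E10.5 and none at E11.5, and 4 cells of E2 and E3 at each stage.

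The order of levels across clusters, with both libraries summed, parted the members further. Gja4 was highest in E6 (2367 CPM [2263 to 2474]), E0 (2269) and E5 (2147), whose neighbouring intervals overlapped, then E9 (934.1 [849.5 to 1025]), E1 (319.4) and E7 (145.1), and lowest in E3 (11.16) and E8 (2.444, 1 UMI). The stages were summed here although clusters differ in their share of each. By stage, E6 was above E0 in Gja4 at E10.5 (3117 against 2293 CPM) and below E5 at E11.5 (1659 against 2147 CPM). E5 held no cell of E10.5, so these are different pairs of clusters and cannot show a change of order between stages. Gja5 was highest in E0 (985.3 CPM), E6 (687.1) and E5 (565.6), followed by E1 (120.6) and E7 (38.19), each clear of the next. At E11.5 alone E6 (535.7 CPM [468.6 to 609.8]) and E5 (565.6 CPM [510.7 to 624.7]) did not differ beyond their intervals. Gja5 had 6 UMIs or fewer in each of E9, E4, E2 and E3 and none in E8. E9 was thus a cluster with Gja4 and almost no Gja5. It held 14 cells, all of E10.5, led by Vwa1, Slc7a5, Stra6, Foxq1 and Slc2a1, and 3 of those cells held 255 of its 447 Gja4 UMIs. It also held Aplnr at 165.1 CPM and Nrp2 at 91.95 CPM, venous members that E0, E5 and E6 lacked.

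Unc5b was highest in E6 (374.2 CPM [333.8 to 418.2]), clear of E0 (172.6) and E5 (118.1), so the arterial-like clusters differed among themselves in this gene more than in Gja4. In E6, 3 cells held 75 of the 157 Unc5b UMIs at E10.5 and 83 of 154 at E11.5. Efnb2 was highest in E5 (463.5 CPM [414.0 to 517.4]), followed by E0 (380.5) and E6 (361.0), and the next clusters, E2 (97.40), E1 (91.06) and E9 (83.59), did not differ beyond their intervals. Sema3g ran from 129.3 CPM in E0, 127.5 in E6 and 97.66 in E5 down to 33.44 in E9. Nrp1 was highest in E0 (1070 CPM), E6 (1044) and E5 (881.9), with 282.1 CPM in E9, 261.1 in E4 and 252.9 in E1.

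Of the venous members, Aplnr was highest in E2 (348.3 CPM), then E3 (210.3) and E9 (165.1), with 53.96 in E4 and 39.76 in E1. Nrp2 followed the same first steps, with 347.2 CPM in E2, 227.7 in E3, 91.95 in E9 and 83.09 in E4. Nr2f2 differed in that sinusoidal-like cluster E4 (254.1 CPM) stood beside E2 (278.8), ahead of E1 (211.9) and E3 (175.6). Sinusoidal-like cells, the liver's fenestrated endothelium, thus carried Nr2f2 with lower Aplnr and Nrp2 than E2. Ephb4 ran only from 75.47 CPM in E2 to 38.48 in E1 over 8 clusters, with E6 and E0 next after E2, with 15.28 in haemogenic-like E7 and no UMI in E8.

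Haemogenic-like E7 was low in most members of either group. Gja4 stood at 145.1 CPM there, with 53 of 68 UMIs at E10.5 and 44 of 46 at E11.5 in 3 cells each, and Aplnr had no UMI in its 21 cells. Gja5 stood at 38.19 CPM, with 17 of 19 UMIs at E10.5 in 3 cells. The median E7 cell had no Gja5 UMI at either stage, and 2 UMIs of Gja4 at E10.5 against 1 at E11.5.

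**Figure D2:**
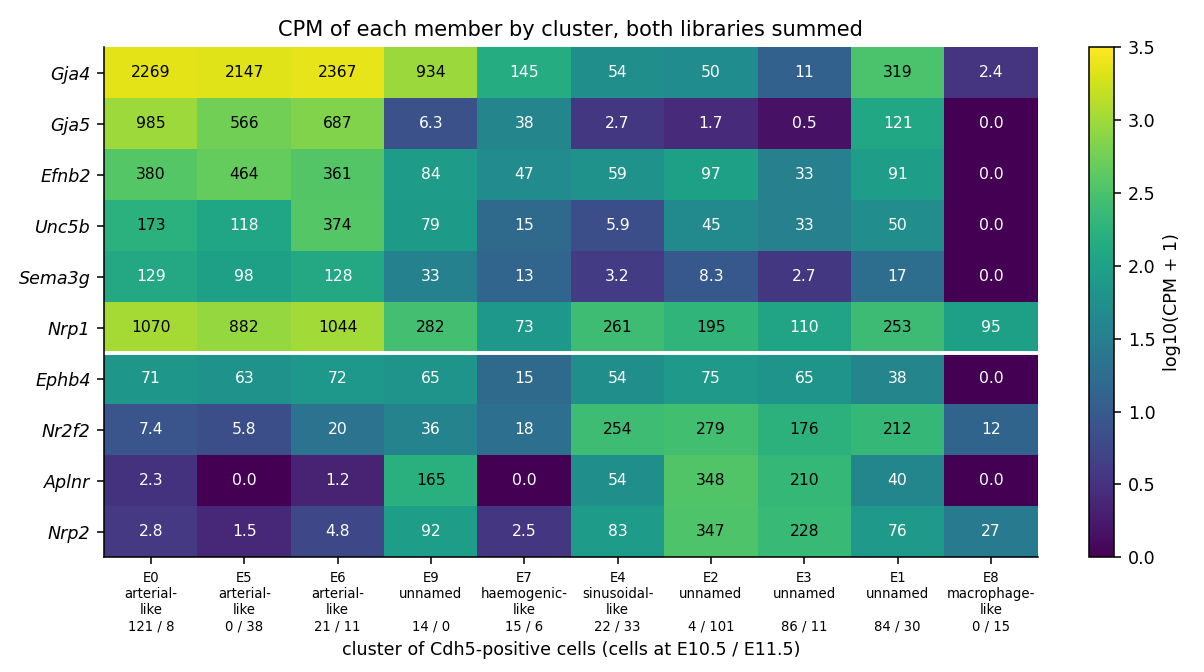
CPM of each member (rows) in each cluster of Cdh5-positive cells (columns, with cells at E10.5 and E11.5 below), both libraries summed; colour gives log10(CPM + 1) and the white line parts arterial from venous members. E0, E5 and E6 are bright in the upper rows and dark for Nr2f2, Aplnr and Nrp2, while Ephb4 is even across most columns.

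Between the stages, 2 of the 10 members passed 2-fold in all Cdh5-positive cells: Gja5 was lower and Nrp2 higher at E11.5. Of 12523 genes tested, 3.93% were lower and 5.52% higher. Gja5 went from 222.6 CPM (2457 UMIs) to 102.5 CPM (748 UMIs), a log2 difference of -1.12 [-1.239 to -1.0004]. Nrp2 went from 101.9 CPM (1125 UMIs) to 212.3 CPM (1549 UMIs), a difference of 1.06 [0.95 to 1.17]. Without cluster E1, a setting added after the data were seen, Gja5 still passed and Nrp2 did not.

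The other members moved by less than 2-fold. Gja4 stood at 614.8 and 379.2 CPM (-0.70 [-0.76 to -0.63]), and Sema3g at 31.9 and 25.8 CPM (-0.31 [-0.57 to -0.05]). Nr2f2 stood at 141.0 and 207.5 CPM (0.56 [0.45 to 0.66]), and Aplnr at 99.9 and 181.9 CPM (0.86 [0.75 to 0.98]). Efnb2 (0.27), Nrp1 (-0.09), Unc5b (-0.09) and Ephb4 (0.04) were near even. The median was -0.20 for the arterial and 0.71 for the venous members, beside 0.02 for all genes. The mix of cells moved with this: arterial-like cells were 142 of 367 at E10.5 and 57 of 253 at E11.5. The sums weight cells by their UMIs, so these shares of cells are not shares of the sums. How far the mix enters these differences was not tested, and levels within clusters follow.

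Within clusters E0, E5 and E6 together, none of the 8 members with 20 UMIs or more passed 2-fold, beside 3.12% of 9587 genes higher and 3.21% lower. Gja5 came nearest, at 976.0 CPM at E10.5 and 563.7 CPM at E11.5 (-0.79 [-0.92 to -0.67]). Gja4 stood at 2456 and 1956 CPM (-0.33 [-0.40 to -0.26]), and Nrp1 at 1095 and 905.6 CPM (-0.27 [-0.38 to -0.17]). Efnb2 was at 371.7 and 428.3 CPM (0.20 [0.04 to 0.37]). The intervals of Unc5b (-0.17), Sema3g (-0.15) and Ephb4 (-0.29) included 0, and Nr2f2 rested on 19 and 15 UMIs (0.40 [-0.68 to 1.45]). The median of the arterial members was -0.22, beside 0.01 for all genes.

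E6 was the arterial-like cluster least confined to 1 stage, with 21 and 11 cells. The 11 cells at E11.5 fall below the 20 per library set as the minimum for comparing a cluster by stage. Its values are given as a description. Gja4 was at 3117 and 1659 CPM there (-0.91) and Gja5 at 847.3 and 535.7 CPM (-0.66), while Efnb2 (0.21) and Unc5b (-0.11) were near even. There 3 cells held 572 of 1258 Gja4 UMIs and 172 of 342 Gja5 UMIs at E10.5, and 337 of 709 and 114 of 229 at E11.5. None of 7 members tested passed 2-fold, beside 4.29% of genes higher and 3.89% lower. Cluster E5 at E11.5 against E0 at E10.5 gave 0 of 7 as well, beside 4.54% and 4.83%, with Gja5 at -0.83, Unc5b at -0.61 and Gja4 at -0.10. Endocardial markers summed to 810 CPM at E10.5 and 503 CPM at E11.5 in the arterial-like cells, and their part in these values was not tested.

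Outside the arterial-like clusters the connexins differed more. In the other Cdh5-positive cells, Gja4 was lower at E11.5 (195.6 to 60.9 CPM, -1.68), Gja5 was lower (51.1 to 9.39 CPM, -2.44) and Nrp2 was higher (124.5 to 254.5 CPM, 1.03), beside 4.76% of genes lower and 6.23% higher. These calls turned with the clusters included, in settings added after the data were seen. Without E1, Gja5 was at 4.48 and 3.73 CPM on 26 and 20 UMIs (-0.26 [-1.18 to 0.64]) and Nrp2 at 0.83, neither past 2-fold, while Gja4 was still lower (108.0 to 47.8 CPM, -1.18) and Efnb2 was higher (39.6 to 81.0 CPM, 1.03). Those values stand beside 8.13% of genes higher and 1.81% lower. Cluster E9, present at E10.5 alone, held 447 of the Gja4 UMIs. Without E1 and E9, Gja4 stood at 33.8 and 47.8 CPM (0.50 [0.22 to 0.78]), and Efnb2 (1.18), Unc5b (1.15) and Sema3g (1.19) were higher, beside 9.46% of genes higher and 1.68% lower. In E1 itself, Gja4 (355.4 to 159.2 CPM, -1.16), Gja5 (136.1 to 51.7 CPM, -1.40) and Unc5b (55.9 to 25.1 CPM, -1.15) were lower at E11.5, beside 5.6% of genes lower and 5.11% higher.

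In clusters E2 and E3 together, joined after the data were seen because each is mostly of 1 library, 4 arterial members were higher at E11.5. Gja4 went from 11 CPM (42 UMIs) to 46.9 CPM (179 UMIs), a log2 difference of 2.09 [1.60 to 2.61], with 23 and 69 of those UMIs in 3 cells. Efnb2 went from 31.7 to 93.3 CPM (1.56 [1.26 to 1.87]), Unc5b from 23.0 to 53.7 CPM (1.22 [0.85 to 1.60]) and Sema3g from 2.62 to 7.86 CPM on 10 and 30 UMIs (1.59 [0.51 to 2.78]). These are the clusters with the highest Aplnr and Nrp2, and 4 of 6 arterial members were higher there at E11.5, with Gja5 not tested on 3 and 5 UMIs. E2 gave 101 of the 112 cells at E11.5 and E3 gave 86 of the 90 at E10.5. Stage and cluster therefore cannot be told apart in these differences. Genes at least 2-fold higher made up 8.83% of 10490 tested, with a median of 0.13. The venous members Nr2f2 (0.63), Aplnr (0.53), Nrp2 (0.76) and Ephb4 (0.12) did not pass, nor did Nrp1 (0.59). After thinning, Efnb2 was found in 11.7% [5.74 to 20.4] of E2 and E3 cells at E10.5 and 30.5% [22.0 to 40.1] at E11.5.

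In sinusoidal-like E4, with 22 and 33 cells, Nrp1 was higher at E11.5 (161.2 to 349.4 CPM, 1.12 [0.83 to 1.41]). Gja4 was lower there (80.6 to 30.5 CPM, -1.40 [-2.07 to -0.77]) on 70 and 30 UMIs, of which 3 cells held 54 and 23. Beside these, 8.6% of 7531 genes were higher and 2.72% lower. Nr2f2 stood at 245.2 and 262.0 CPM (0.10) and Nrp2 at 59.9 and 103.6 CPM (0.79) in the same cells, neither past 2-fold.

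**Figure D3:**
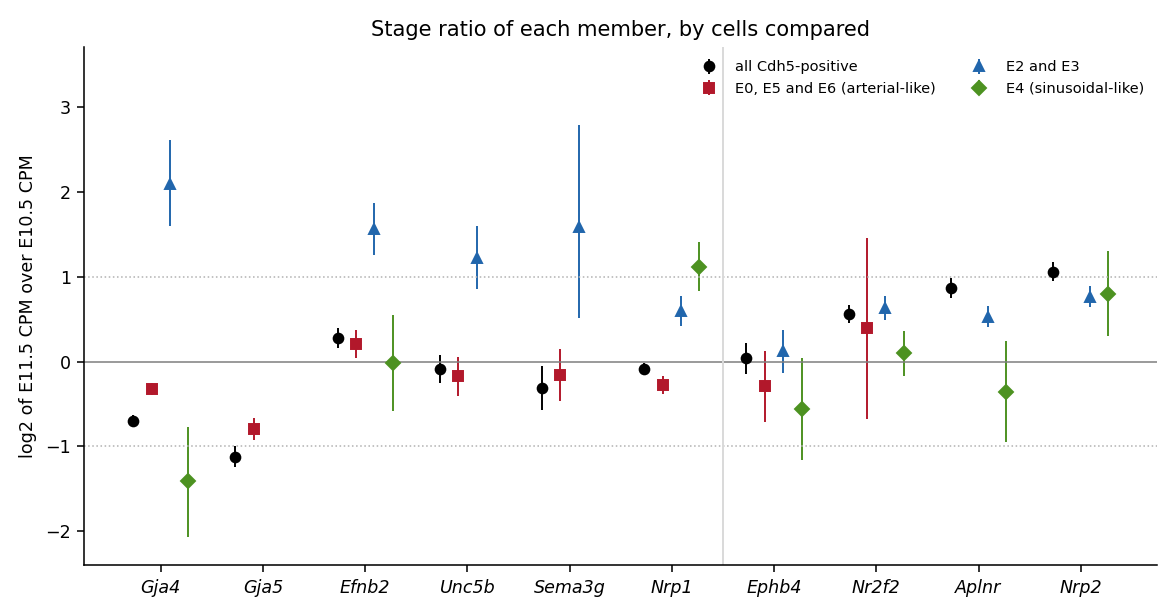
The log2 of CPM at E11.5 over E10.5 for each member in all Cdh5-positive cells (black circles), clusters E0, E5 and E6 (red squares), E2 and E3 (blue triangles) and sinusoidal-like E4 (green diamonds), with 95% counting intervals and dotted lines at 2-fold. The red squares stay within the dotted lines, and the blue triangles of Gja4, Efnb2, Unc5b and Sema3g lie above them.

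Arterial and venous members were then counted in the same cell. After thinning, an arterial-like cell held on average 4.67 of 6 arterial and 0.369 of 4 venous members at E10.5, and 4.53 and 0.293 at E11.5. In E2 and E3 a cell held 0.682 arterial and 2.12 venous members at E10.5, and 1.17 and 2.28 at E11.5. Cells with at least 2 members of each group made up 6.33% of E2 and E3 at E10.5 and 18.8% at E11.5. Sinusoidal-like cells held 1.03 of 6 arterial and 1.52 of 4 venous members at E10.5, and 1.25 and 1.5 at E11.5. At least 2 venous members were found in 46.9% and 49.9% of them, and at least 3 arterial members in 4.36% and 6.75%. No venous member was found in 10.7% and 13.5%, and no arterial member in 28% and 13%.

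Gja5 and Nr2f2 marked largely separate cells. Before thinning, 57 of 367 Cdh5-positive cells at E10.5 (15.5% [12.0 to 19.6]) and 17 of 253 at E11.5 (6.72% [3.96 to 10.54]) held a UMI of both. Of these, 40 at E10.5 and 5 at E11.5 lay in E1, and 41 and 6 had a high doublet score. After thinning the shares were 5.06% [3.002 to 7.94] and 1.87% [0.569 to 4.47], and without E1 they were 1.49% [0.401 to 3.80] and 1.02% [0.146 to 3.44]. The share expected from the shares of both genes was far higher, as cells with both were 0.12 and 0.10 times that product without E1. Cells with Gja5 and Aplnr were 0.06 and 0.03 times the product.

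After thinning and without E1, every pair within a group other than those with Ephb4 stood at 1.15 times the product of its shares or more. Gja4 and Gja5 were found in the same cell in 192 of 367 cells at E10.5 (52.3%, and 52.7% without E1) and 65 of 253 at E11.5 (25.7%, and 26.5% without E1), nearly all of the 195 and 66 cells with Gja5. Nr2f2 and Aplnr were found together in 39.2% of cells at E10.5 (144 cells, and 37.5% without E1) and in 49.8% at E11.5 (126 cells, and 51.6% without E1). After thinning and without E1, pairs of Nr2f2 with Aplnr stood at 2.04 and 1.49 times the product of the shares, and pairs of Nr2f2 with Nrp2 at 2.12 and 1.58. Efnb2 was found with Nr2f2 at 0.39 times the product at E10.5 and 0.69 at E11.5, so this arterial member was less apart from the venous regulator than Gja5 was. Ephb4 was found with every other member at 0.97 to 1.26 times the product, and 50.4% of the Ephb4 cells at E10.5 also held Gja5.

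**Figure D4:**
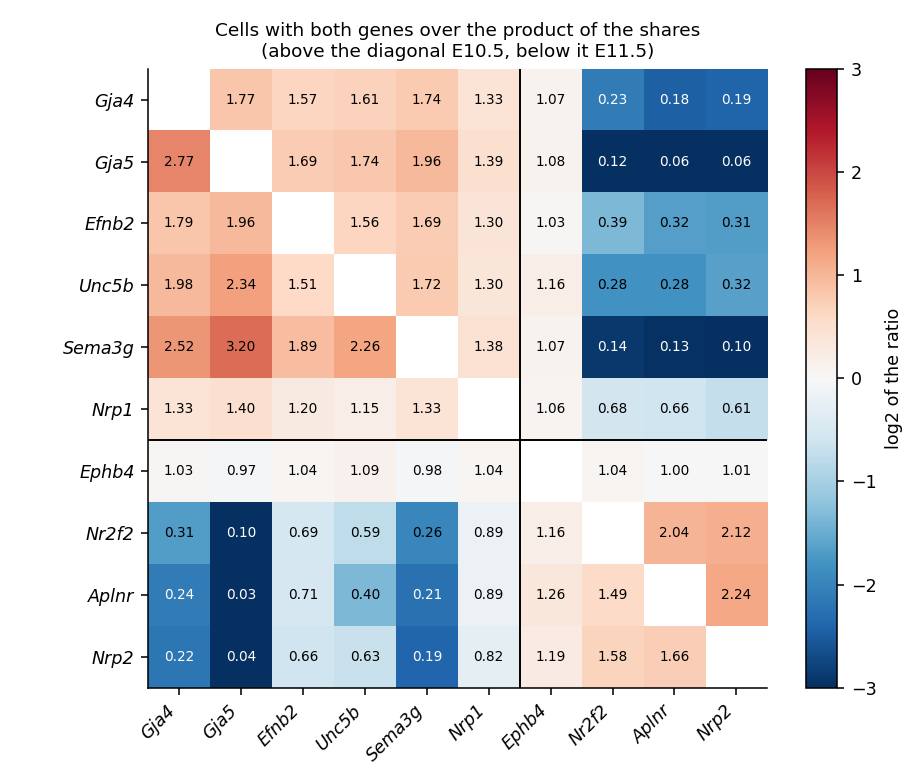
Share of Cdh5-positive cells with both genes of a pair over the product of the shares of each, after thinning to 5000 UMIs and without cluster E1; cells above the diagonal are E10.5 and those below it E11.5, and colour gives log2 of the ratio. Pairs within the arterial members are red, pairs of Gja5 with Nr2f2 (0.12 and 0.10) are dark blue, and the Ephb4 row and column are pale.

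Outside endothelium, levels were read in clusters of at least 50 Cdh5-negative cells, 17 clusters at E10.5 and 27 at E11.5. Efnb2, Unc5b, Nrp1, Ephb4, Nr2f2 and Nrp2 reached at least 25% of their endothelial CPM in some such cluster at both stages. Among all genes this was the rule, met by 98.1% of 11613 genes at E10.5 and 99% of 11135 at E11.5, so the members that differ from most genes are the 4 that did not reach it. Those were Gja4, Gja5, Sema3g and Aplnr. Their highest clusters outside endothelium stood at 2.12% of the endothelial CPM for Gja4, 2.44% for Gja5, 8.35% for Sema3g and 4.88% for Aplnr at E10.5. At E11.5 the highest stood at 3.07%, 4.52%, 19.4% and 7.10%.

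Nr2f2 was the most widespread member. It reached 25% of its endothelial CPM in all 17 clusters at E10.5 and in 22 of 27 at E11.5, and was above its endothelial level in 12 and 16. The highest at E10.5 was C22, a hepatic stellate-like cluster with Lhx2, Reln and Des, at 684.9 CPM [638.9 to 733.4]. At E11.5 it was C5, an unnamed cluster led by Igfbp3, Gata2 and Itga8, at 1046.8 CPM [1023.3 to 1070.8]. Both are far above the 141.0 and 207.5 CPM of endothelium, so Nr2f2 was not restricted to endothelium in these tissues. Erythroid-like C3 was low at E11.5, with 33.2 CPM.

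Hepatic stellate-like C22 was also highest for Nrp1, at 397.0 CPM at E10.5 and 426.9 CPM at E11.5, which are 114.8% and 131.0% of the endothelial level. The same cluster gave the highest Unc5b, at 44.1 and 64.3 CPM (63.4% and 98.4%). Stellate cells lie beside the sinusoids of the liver. Nrp2 was highest at E10.5 in C31, a cluster led by Shh, Spon1 and Foxa2, genes of floor plate and endoderm, at 532.1 CPM (522.0%). At E11.5 its highest was neuron-like C18, led by Chgb, Dbh and Phox2a, at 303.7 CPM (143.1%), a cluster at 157.2 CPM at E10.5.

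Efnb2 was highest at E10.5 in neuron-like C18 (96.9 CPM, 83.5%) and at E11.5 in nephric-like C36 (179.8 CPM, 128.1%), a cluster with Pax2, Pax8 and Lhx1. Mesothelium-like C13 followed at E11.5 with 139.5 CPM, and smooth muscle-like C20 with 104.2 CPM. Ephb4 was highest in mesenchyme-like C30 at both stages (73.2 CPM [41.0 to 120.7], 128.6%, and 45.2 CPM [18.2 to 93.1], 77.4%), but on 15 and 7 UMIs, since its cells were shallow with a median of 1636 UMIs. Hepatoblast-like cells held Ephb4 at 28.8 CPM at E10.5 and 22.3 CPM at E11.5. Transcripts of ephrin-B2 and of its receptor EphB4 were therefore found in several tissues around the vessels.

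**Figure D5:**
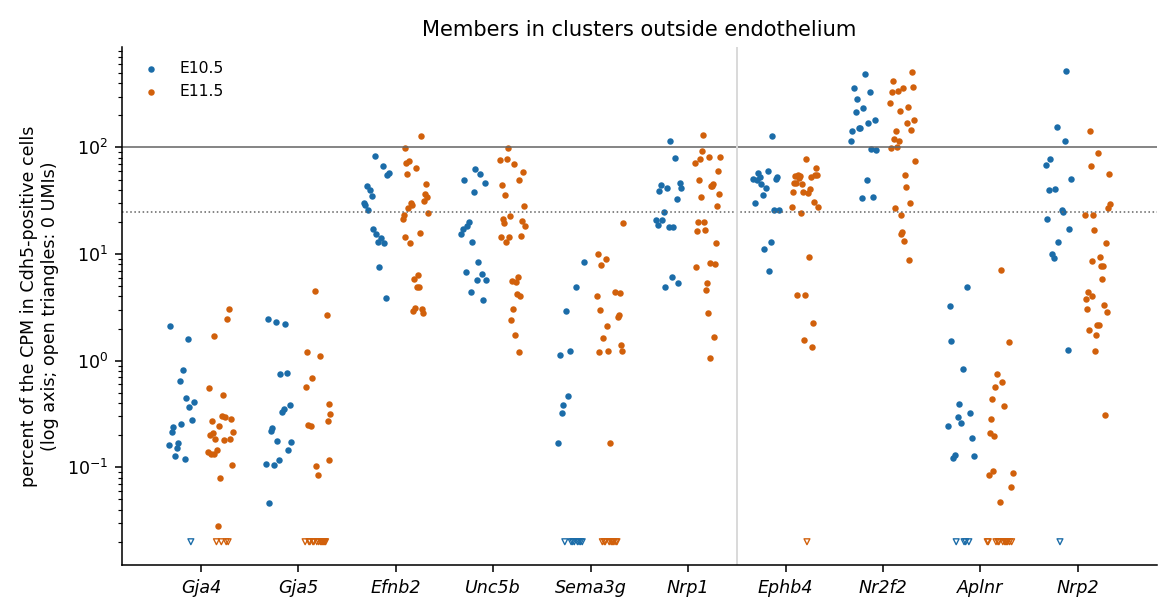
Level of each member in every cluster of at least 50 Cdh5-negative cells, as percent of its CPM in Cdh5-positive cells of the same stage (log axis; blue E10.5, orange E11.5; open triangles are clusters with 0 UMIs). The dotted line is at 25% and the solid line at 100%; Gja4, Gja5, Sema3g and Aplnr lie below the dotted line in every cluster, and Nr2f2 lies above the solid line in 12 and 16 clusters.

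The partners of the members, 33 ligands, receptors and relatives, were read in the same contrasts. Between arterial-like and other Cdh5-positive cells, 11 of 30 tested were higher and 9 lower at E10.5, and 10 of 27 were higher and 8 lower at E11.5. Among all genes tested, 12.8% were higher and 10.6% lower at E10.5, and 11.1% and 11.4% at E11.5. Against clusters E2, E3 and E4 alone, 12 of 24 were higher and 4 lower at E10.5, beside 18.9% and 7.1% of all genes. At E11.5, 9 of 23 were higher and 7 lower, beside 12.5% and 9%. The values that follow are against all other Cdh5-positive cells. Vegfc, a VEGF ligand, was higher in arterial-like cells at both stages (287.2 against 35.2 CPM, 3.03, and 235.0 against 29.6 CPM, 2.99). Ntn4, a netrin, was higher by 4.94 [3.20 to 7.33], with 3 UMIs in the other cells at E10.5, and by 2.86. Of the plexins, which pair with neuropilins, Plxna4 and Plxna2 were higher at both stages. Plxna4 stood at 28.3 against 3.34 CPM at E10.5 (3.09), and Plxna2 at 66.9 against 16.6 CPM at E11.5 (2.01). Nr2f1, the closest relative of Nr2f2, was lower in arterial-like cells by -3.12 and -4.60 on the log2 scale. Flrt2, a ligand of Unc5 receptors, was lower too (4.89 against 43.8 CPM, -3.17, and 13.9 against 74.6 CPM, -2.43). Apln, the ligand of Aplnr, had 0 UMIs in arterial-like cells at E10.5 beside 107 in the other cells, and was lower at E11.5 too (-3.57). Efnb1 was lower at both stages, by -2.34 at E11.5.

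Between stages in all Cdh5-positive cells, 2 of 30 partners tested were higher at E11.5 and 4 lower, beside 5.52% and 3.93% of all genes. The higher partners were thus about as frequent as higher genes in general. Robo4, an endothelial receptor that binds Unc5b, went from 22.7 to 55.8 CPM (1.29 [1.06 to 1.53]), and Ntn4 from 24 to 32 UMIs (1.01). Nr2f1 went from 84.9 to 33.3 CPM (-1.35 [-1.56 to -1.15]), Rgma from 9.88 to 3.29 CPM (-1.59) and Ntn1 from 61 to 3 UMIs (-3.75 [-6.07 to -2.13]). Nr2f1 and Nr2f2 thus differed in direction between the stages in all Cdh5-positive cells. The lower calls turned with E1. Outside the arterial-like clusters, 4 of 29 partners tested were lower at E11.5, beside 4.76% of all genes. Without E1, 0 of 23 were lower there, beside 1.81% of all genes. In E1 itself, Ephb3, Ntn1 and Rgma were among 5 of 26 partners lower, beside 5.6% of all genes. Robo4 was also higher at E11.5 in sinusoidal-like E4 (23.0 to 83.3 CPM, 1.85) and in E2 and E3 (19.4 to 60.3 CPM, 1.64). In E4, 8 of 18 partners were higher and 1 lower, beside 8.6% and 2.72% of all genes. The lower one was Flrt2 (50.6 to 10.2 CPM, -2.32). Flt1, a VEGF receptor, was among the higher partners in E4 (166.9 to 381.9 CPM, 1.19). So was Apln, on 2 and 19 UMIs (3.07 [1.02 to 6.21]). In E2 and E3, 5 of 23 partners were higher and 1 lower, beside 8.83% and 1.56% of all genes. Efnb1 (5.5 to 18.6 CPM, 1.76) and Epha4 (4.45 to 12.6 CPM, 1.498) were among the higher partners, and Apln was the lower one (21.7 to 9.69 CPM, -1.17). In E0, E5 and E6, Flrt2 was higher on 10 and 17 UMIs (1.51) and Nr2f1 lower on 24 and 2 UMIs (-2.85 [-5.97 to -0.84]), of 21 tested. Among all genes in these clusters, 3.12% were higher and 3.21% lower.

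Against Cdh5-negative cells, 7 of 33 partners were higher in Cdh5-positive cells and 14 lower at E10.5, and 9 were higher and 15 lower at E11.5. Among all genes tested, 9.42% were higher and 19.4% lower at E10.5, and 11.9% and 21.6% at E11.5. The receptors Robo4 (7.89 and 8.65), Flt4 (7.30 and 7.79) and Flt1 (6.83 and 6.98) led, and Kdr and Plxnd1 were also higher at both stages. Sema3c, a ligand of the neuropilins, was lower by -2.42 and -3.25. Other ligands were highest outside endothelium as well. Sema3a was highest in hepatic stellate-like C22 (130.7 CPM at E10.5 and 165.4 CPM at E11.5), as was Vegfa (82.4 and 137.0 CPM). Ntn1 (394.3 CPM) and Apela (210.4 CPM), the ligands of Unc5b and Aplnr, were highest at E10.5 in C31, the cluster led by Shh and Foxa2.

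Genes with a pattern like each member were ranked by Pearson's r of log2(CPM + 10) over 50 columns, each a cluster in a library, among 8150 genes. The columns share libraries and differ in depth, and r is a description. Gja4 was most like Sox7 (0.966), Sox17 (0.964) and Edn1 (0.962), and Gja5 most like Sost (0.972), Edn1 (0.956) and Zfp69 (0.943). Sema3g was most like Sost (0.971), Pi16 (0.965) and Dll4 (0.951), and Aplnr most like Fam167b (0.954), Kcne3 (0.941) and D030007L05Rik (0.932). The members shared with other tissues had looser neighbours. Unc5b was most like Ece1 (0.821), Lpar4 (0.803) and Smad6 (0.795), and Efnb2 most like Skil (0.821), Lrrc58 (0.803) and Map4k3 (0.801). Nrp1 was most like Bmpr2 (0.809), Armcx4 (0.808) and Hip1 (0.803). Ephb4 was most like Hyal2 (0.899), Amotl1 (0.876) and Mmp14 (0.872), and Nr2f2 most like Efnb1 (0.871), Hmga2 (0.864) and Peg3 (0.851). Nrp2 had the loosest, with Kctd17 (0.649), Gnb4 (0.615) and Adgrb3 (0.608). Among the members, Gja4 with Gja5 gave 0.952 and Gja5 with Sema3g 0.939, whereas Nr2f2 with Aplnr gave -0.00065 over these columns of all tissues, although the same pair shared cells within endothelium.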

How the data were processed

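Droplet single-cell RNA-seq (10x Chromium 3′ v3.1) was analysed in 2 libraries, from E10.5 and E11.5 embryos. The deposited values are UMI counts per gene and barcode, made with Cell Ranger 5.0.0 on mm10 (GRCm38), per the submitters' processing notes; filters applied before deposit are not given in the sources used here, and the lowest barcode total was 500 UMIs. Kept barcodes had 1000 UMIs or more, 500 genes or more and mitochondrial UMIs of 10% or less, 8705 of 10996 (151474708 UMIs before filtering, median 15515 in kept cells) and 9756 of 12289 (159619785 UMIs, median 13332). UMIs were summed over cells of a group and divided by the total without haemoglobin and mitochondrial genes. Exact Poisson, Clopper-Pearson and conditional intervals at 95% cover counting error only.

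Cells were clustered on 2000 variable genes (40 principal components for all cells, 30 for Cdh5-positive cells, 15 neighbours, Leiden resolution 1). A cluster of all cells was named when at least 3 markers reached 3-fold over all other cells. In Cdh5-positive cells at least 3 markers, and 50% or more of the list, had to reach 2-fold over the median cluster. These thresholds were chosen after the data were seen. E2 met the rule for capillary or tip endothelium, with no such marker among its leading genes, and is called by number. Names were rebuilt here and may differ from the study's. Doublets were scored by the share of simulated doublets among 30 neighbours, the top 8% per library counted as high, and none were removed. A call needed a 2-fold difference and at least 20 UMIs in both groups together, and a count of 0 was set at 3 counts. Thinning to 5000 UMIs used exact expectations, and members per cell the mean of 25 draws.

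The members and lists were chosen with earlier results of these data known. All 10 members are named; of the 33 partners, up to 3 past 2-fold per contrast and direction, by the interval bound nearest to 0, and the highest cluster of some ligands, which were picked after their values were seen; and the 3 genes most like each member. The scripts were tested on simulated data. Other gates, filters, thinning depths, doublet removal and other folds were tried as alternatives. Software was Python 3.11.15, numpy 2.4.6, scipy 1.17.1, pandas 2.3.3, igraph 0.11.9 and leidenalg 0.10.2.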

Additional observations from a re-analysis of the deposited data

Results flagged for a closer look

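The log2 of E11.5 over E10.5 ran in opposite directions in different groups of Cdh5-positive cells for Gja4 and Unc5b. The log2 difference of Gja4 at E11.5 over E10.5 was -1.40 in sinusoidal-like E4 and 2.09 in E2 and E3, and it was -1.16 in E1. Unc5b differed by 1.22 in E2 and E3 and by -1.15 in E1. With 1 library per stage the difference between these differences was not tested. The Gja4 value in E4 rests on 70 and 30 UMIs, and 84.2% of the cells of E1 had a high doublet score. The Unc5b value in E1 rests on 178 and 18 UMIs. E3 was mostly of the E10.5 library and E2 mostly of the E11.5 library, so in E2 and E3 stage and cluster cannot be told apart.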

How the results depend on the processing

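Over 27 alternative settings, 650 log2 differences of single members were recomputed, and 636 kept their call. No called difference changed sign. Differences under 2-fold changed sign 11 times, for Efnb2 (0.27, down to -0.22), Unc5b (-0.09, up to 0.60), Sema3g (-0.31, up to 0.20), Nrp1 (-0.09, up to 0.35) and Ephb4 (0.04, down to -0.25) between stages in Cdh5-positive cells, and for Ephb4 at E11.5 between arterial-like and other cells (0.08, down to -0.09). In all 17 alternatives at each stage, 6 of 6 arterial members were higher and 3 of 4 venous members lower in arterial-like cells. The sizes of these venous differences moved widely. Nr2f2 ranged from -4.77 to -1.52 at E10.5 and from -5.16 to -2.25 at E11.5. Aplnr ranged from -6.12 to -1.97 and from -6.68 to -1.54, and Nrp2 from -5.94 to -2.33 and from -7.04 to -2.77. The lowest difference of an arterial member was 1.84 (Unc5b at E10.5). The count of members past 2-fold between stages in Cdh5-positive cells was 2. It was 1 with Cdh5 at 1 UMI or more (Gja5), 1 with mitochondrial UMIs at 5% or less (Nrp2), 1 with high doublet scores removed (Gja5) and 1 without E1 (Gja5, added after the data were seen). It was 4 at 1.5-fold (Gja4, Gja5, Aplnr and Nrp2) and 0 at 3-fold. In arterial-like cells, where it was 0, it was 2 with Cdh5 at 3 UMIs or more, with a Pecam1 gate, with at least 2000 UMIs per cell and with high doublet scores removed, each time Aplnr and Nrp2. It was 1 at 1.5-fold (Gja5), 1 with each library clustered alone (Nr2f2) and 1 with classes from a marker score (Aplnr). The share of Cdh5-positive cells at E10.5 with Gja5 and Nr2f2, 15.5%, was 10.96% with Cdh5 at 1 UMI or more, 5.63% with high doublet scores removed, 10.1% with 2 UMIs of each gene and 6.01% without E1. Thinned, at 5.06%, it was 1.39% with high doublet scores removed, 0.696% with 2 UMIs of each, 1.69% at 2000 UMIs and 1.49% without E1. At E11.5, thinned, at 1.87%, it was 0.217% with 2 UMIs of each and 0.536% at 2000 UMIs. Beyond what each construction sets, the cause was not tested. Nrp2 against Cdh5-negative cells at E10.5 ranged from 0.58 to 1.26. Low counts limit Aplnr, Nrp2 and Nr2f2 in arterial-like cells most. No paired analysis was possible because each stage has 1 library.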
